A study of Mus musculus with 10 samples.

Results

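The respiratory chain genes were described as 92 rows of a table of 36144 genes, in primary smooth muscle cells of the mouse aorta with and without overexpression of Adamts7. They were taken by symbol: mitochondrially encoded genes whose symbols begin with mt-Nd, mt-Co or mt-Atp, and nuclear genes of the Nduf, Sdh, Uqcr, Cox4 to Cox8 and Atp5 families. Of 107 rows with such a symbol, 7 pseudogene symbols and 8 genes with a mean below 1 TPM were left out. The 92 members comprise 12 mitochondrially encoded and 80 nuclear genes. Complex I holds 7 mitochondrial and 37 nuclear members, complex II 4 nuclear, complex III 8 nuclear, complex IV 3 mitochondrial and 14 nuclear, and complex V, the ATP synthase, 2 mitochondrial and 17 nuclear. The symbols take no mitochondrial member of complex III, since mt-Cytb is spelled otherwise, and they also miss Cyc1 of complex III, Ndufab1 of complex I and Usmg5 of complex V. Complexes were assigned by symbol, which places Ndufa4 in complex I although it is now regarded as a subunit of complex IV, and Atp5s in complex V although it is no core subunit of the enzyme.

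The respiratory chain passes electrons from NADH and succinate to oxygen through complexes I to IV, and the proton gradient built by complexes I, III and IV drives ATP synthesis by complex V. Complexes I, III, IV and V are mosaics of subunits translated inside the mitochondrion from mitochondrial DNA and subunits imported after translation in the cytosol, while complex II is wholly nuclear. The mitochondrial genes are transcribed as long precursors from both strands and cut into single RNAs, whereas each nuclear gene has its own promoter. Vascular smooth muscle draws on both glycolysis and respiration.

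The series set cultures with Adamts7 overexpression (Myh11-Cre-ERT2, a tamoxifen-inducible Cre under a smooth muscle promoter) against wild-type cultures, both grown in serum from the media of aortas of male mice aged 8 weeks and used between passages 2 and 7. Adamts7 encodes a secreted metalloprotease. Each genotype has 3 RNA libraries from separate mice, and 2 mice of each were profiled for open chromatin with ATAC-seq. No Cre driver is named for wild type, and the sources used here do not give who received tamoxifen or the passage of a library, so Cre, tamoxifen and Adamts7 cannot be told apart.

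The overexpression libraries had 98.7, 79.1 and 75.8 TPM of Adamts7, against 6.08, 6.18 and 8.20 TPM in wild type, although their titles begin with the wild-type abbreviation. TPM, a relative transcript abundance, are corrected for transcript length and scaled to the same total in each library, so levels can be set side by side between genes, every value is relative to all other RNA, and the read number is unknown. Of 8 smooth muscle markers, 7 were higher in every overexpression library and Smtn was lower in every one (log2 fold change -0.12), and the summed level of all 8 was 3641, 5122 and 3210 TPM there, against 2791, 2825 and 2657 TPM in wild type. All 14 macrophage markers were also higher, with sums of 3823, 3056 and 1191 TPM in overexpression cultures, against 488, 729 and 655 TPM in wild type. Endothelial markers summed to 3351, 2466 and 4083 TPM in overexpression cultures, against 5170, 4829 and 5349 TPM in wild type, and 8 of 12 were lower in every overexpression library. No marker of these 3 lists was at 0 in any library, and which cells the macrophage and endothelial RNA came from was not tested. Markers of striated muscle and of brown adipocytes, tissues rich in mitochondria, were scarce, but their sums were also higher in every overexpression library. Those sums rest on few genes. A mean of 1 TPM was reached by 3 striated muscle markers, 1 of them lower in overexpression (log2 fold change -0.25), and by 1 brown adipocyte marker (0.84). The 11 striated muscle markers summed to 9.30, 13.9 and 11.4 TPM in overexpression cultures, against 7.80, 7.69 and 7.41 TPM in wild type, and the 6 brown adipocyte markers to 17.5, 15.9 and 11.6 TPM in overexpression cultures, against 7.71, 9.13 and 6.65 TPM in wild type. Myh4 was at 0 in every library, as was Cfd, and Ucp1, which defines brown adipocytes, was at most 0.09 TPM. In bulk RNA, fewer cells of a type and less RNA per cell cannot be told apart. The part of these marker shifts in the results that follow was not tested.

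No respiratory chain gene passed the test between genotypes, but nuclear and mitochondrial members lay on opposite sides of 0. limma, run on log2(TPM + 1) with Benjamini-Hochberg adjustment over 13131 genes, called 0 of the 92 members at an adjusted p of 0.05, where 0.0152% of all genes were called. The fold change of overexpression over wild type was above 0 for 65 of the 80 nuclear members and for 1 of the 12 mitochondrial members, against 48.3% of all genes. The median log2 fold change was 0.095 over the nuclear members and -0.12 over the mitochondrial members, against -0.0090 over all genes tested. At an unadjusted p under 0.05, 14 members were higher in overexpression cultures, all nuclear, which is 17.5% of nuclear members against 10.6% of all genes. In the other direction 1 member, mt-Co1, was lower, which is 8.33% of mitochondrial members against 8.94% of all genes. All 3 overexpression libraries lay above all 3 wild-type libraries for 23 members, every one nuclear (28.75% of nuclear members, against 14.3% of all genes). They lay below for 5 members, every one mitochondrial (41.7% of mitochondrial members, against 12.9% of all genes). TPM values share 1 total, so a higher mitochondrial sum lowers the value of every nuclear gene in the same library. With libraries rescaled to the total of their nuclear genes, the median was 0.078 over the nuclear and -0.14 over the mitochondrial members.

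**Figure D1:**
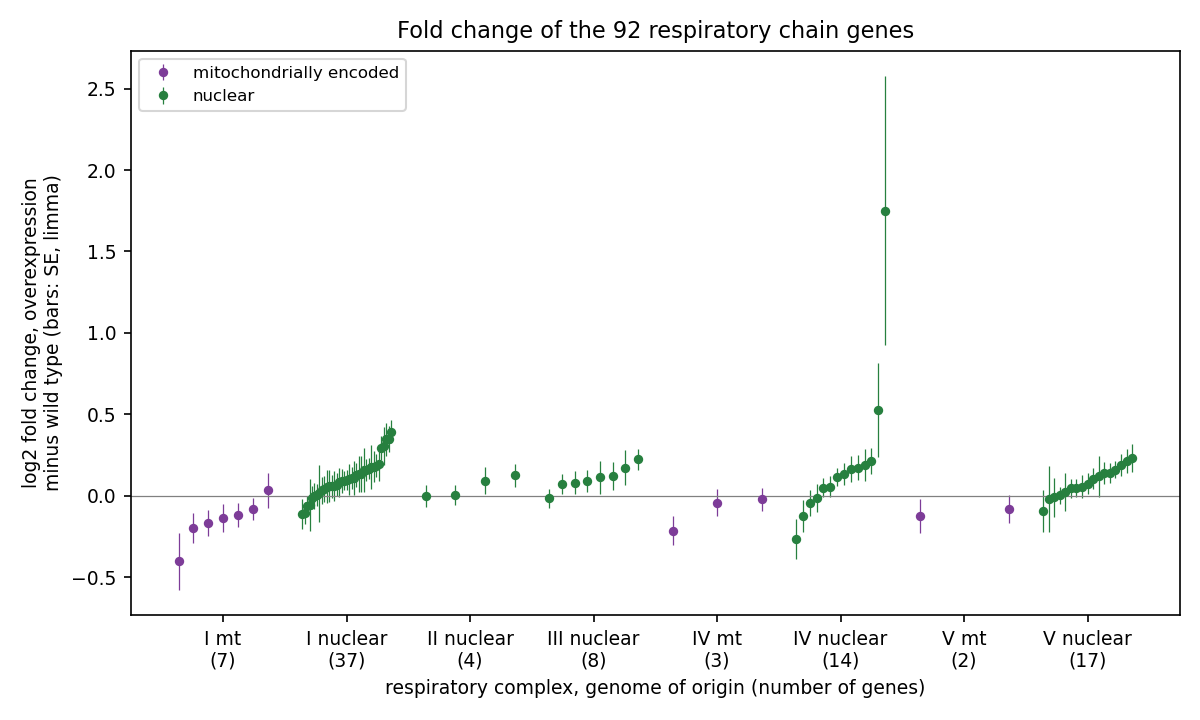
Log2 fold change of overexpression over wild type on the log2(TPM + 1) scale (vertical axis) for each of the 92 members, by complex and by genome of origin (horizontal axis). Points are genes in order of fold change, with bars of 1 SE from limma. Nuclear groups have medians from 0.050 to 0.13, and the mitochondrial groups of complexes I, IV and V have medians from -0.14 to -0.042. The highest point is Cox4i2 at 1.75, and the lowest is mt-Nd6 at -0.40.

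Wild-type replicate 1 carried much of the distance between the genotypes. This library was the lowest of the 6 for 59 of the 80 nuclear members (73.8%), although it was the lowest for only 21.9% of all genes tested, and it was the highest for 11 of the 12 mitochondrial members, against 16.1% of all genes tested. Relative to the wild-type mean, the median nuclear member stood at log2 values of 0.082, 0.14 and 0.084 in the overexpression libraries, against -0.11, 0.066 and 0.056 in wild type. The median mitochondrial member stood at -0.096, -0.11 and -0.15 in the overexpression libraries, against 0.11, -0.035 and -0.085 in wild type. Nuclear medians of the overexpression libraries thus lay just above every wild-type library, and the mitochondrial ones lay just below. Without wild-type replicate 1 the median log2 fold change was 0.048 over the nuclear and -0.055 over the mitochondrial members, and 8 members were higher at an unadjusted p under 0.05 in place of 14 (7.55% of all genes). In that fit 2 nuclear members, Cox6a1 and Cox6b2, were lower in place of mt-Co1 (6.29% of all genes). The summed nuclear TPM of overexpression over wild type was 1.09 in complex III and 1.05 without that library, 1.04 and 1.00 in complex IV, and 1.03 and 0.999 in complex II. In the overexpression group, replicate 2 was the highest library for 35 nuclear members (43.8%, against 18.2% of all genes tested). Whether wild-type replicate 1 differs in culture, passage or RNA handling was not tested.

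**Figure D2:**
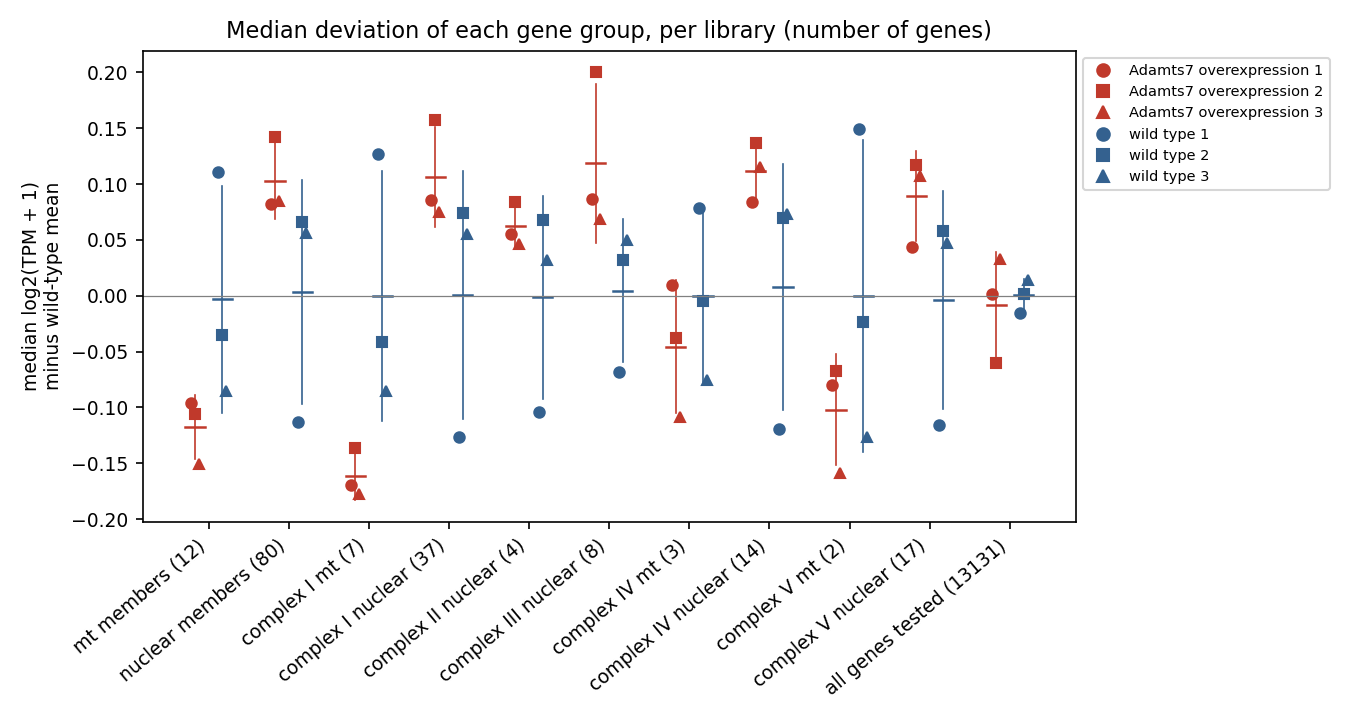
Median log2(TPM + 1) of the nuclear and the mitochondrially encoded members of each library relative to the wild-type mean (vertical axis, log2), with the same by complex and over all genes tested. Each point is 1 library, overexpression to the left of wild type, and lines with bars are mean and SD (n = 3 each). Wild-type replicate 1 stands apart in both sets, at -0.11 for nuclear and 0.11 for mitochondrial members.

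All mitochondrially encoded members but mt-Nd6 had a mean level above that of every nuclear member, and they spanned a wide range. Averaged over the 6 libraries, mt-Co1, the catalytic subunit of cytochrome c oxidase, stood highest at 20232 TPM, and mt-Nd6, the complex I subunit read from the opposite strand to the others, was the lowest mitochondrial member at 81.9 TPM. Between them came mt-Atp8 at 19012 TPM, mt-Co2 at 14295 TPM, mt-Atp6 at 14029 TPM and mt-Nd1 at 9485 TPM. The next were mt-Nd4l at 8037 TPM, mt-Co3 at 7991 TPM and mt-Nd4 at 7976 TPM, whose ranges over the libraries overlapped, so their order is not resolved. mt-Nd2 at 6599 TPM, mt-Nd5 at 5852 TPM and mt-Nd3 at 1583 TPM followed. Of the 11 pairs of neighbours in this order, the ranges did not overlap for mt-Atp8 and mt-Co2, mt-Atp6 and mt-Nd1, mt-Nd4 and mt-Nd2, mt-Nd5 and mt-Nd3, and mt-Nd3 and mt-Nd6. mt-Atp8 with mt-Atp6 and mt-Nd4l with mt-Nd4 share stretches of sequence on joint transcripts, so how reads were divided within each pair is uncertain.

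Among mitochondrial complex IV genes, mt-Co1 was the only one whose genotypes did not overlap. It had 18909, 17992 and 19279 TPM in the overexpression libraries, against 23442, 21168 and 20604 TPM in wild type, so every overexpression library was lower. The log2 fold change was -0.21 ± 0.087 (SE; n = 3 each; limma adjusted p = 0.241), and the adjusted p ranged from 0.0599 to 0.765 over the alternative settings. mt-Co2, which carries the copper site that takes electrons from cytochrome c, had 14619.7, 14195 and 13439 TPM in overexpression libraries, against 15301, 14560.3 and 13658 TPM in wild type. mt-Co3, the other core subunit, had 8104, 7841 and 7839 TPM in overexpression libraries, against 8393, 8024 and 7743 TPM in wild type. Both overlapped between genotypes and differed by log2 values of -0.042 and -0.022. The ratio of mt-Co1 to mt-Co3 within a library, chosen after its values were seen and unaffected by scaling, was 2.33, 2.29 and 2.46 in overexpression cultures, against 2.79, 2.64 and 2.66 in wild type, and did not overlap.

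Of the 7 mitochondrial complex I genes, which encode membrane subunits of the proton-pumping arm, 4 lay wholly lower in the overexpression libraries. That is 57.1%, against 12.9% of all genes. mt-Nd5 had 5498, 5561 and 5466 TPM in overexpression libraries, against 6751, 6008 and 5829 TPM in wild type (log2 fold change -0.17 ± 0.078; limma adjusted p = 0.289). mt-Nd4 had 7163, 7577 and 7516 TPM in overexpression libraries, against 9594, 8114 and 7893 TPM in wild type (-0.20 ± 0.093; limma adjusted p = 0.294). In both genes wild-type replicate 1 was the highest library by a clear margin and the other wild-type libraries lay close above the overexpression range. mt-Nd1 had 9307, 8973 and 9013 TPM in overexpression libraries, against 10529, 9634 and 9453 TPM in wild type, again without overlap. mt-Nd6 had 73.1, 61.1 and 75.0 TPM in overexpression libraries, against 123, 81.5 and 78.1 TPM in wild type, and its log2 fold change of -0.40 ± 0.17 was the lowest of all 92 members (limma adjusted p = 0.260). Wild-type replicate 1 carried much of it: without that library the value for mt-Nd6 was -0.20, and Cox6b2, at -0.34, was the lowest member. The sources used here do not give whether the libraries keep strand, so mt-Nd6 reads cannot be told apart from antisense RNA of its locus.

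The other complex I genes of the mitochondrion overlapped between genotypes. mt-Nd2 had 6341, 6656 and 6251 TPM in overexpression libraries, against 7095, 6651 and 6602 TPM in wild type. mt-Nd4l had 7385, 7867 and 7697 TPM in overexpression libraries, against 9304, 8135 and 7837 TPM in wild type. mt-Nd3 was the sole mitochondrial member with a fold change above 0, and its direction is not settled. It had 1693, 1783 and 1347 TPM in overexpression libraries, against 1611, 1565 and 1500.4 TPM in wild type, so that the overexpression libraries held both its highest and its lowest values, and the log2 fold change of 0.034 ± 0.11 turned to -0.12 under quantile normalization, -0.0080 without overexpression replicate 1 and -0.046 without overexpression replicate 2.

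The 2 mitochondrial genes of ATP synthase encode parts of its proton channel. mt-Atp6, the channel subunit itself, had 13474, 14226 and 13195 TPM in overexpression libraries, against 15546, 14339 and 13396 TPM in wild type. mt-Atp8, a short subunit that helps to assemble the channel, had 18927, 18229.8 and 17312 TPM in overexpression libraries, against 22541, 19220.5 and 17844 TPM in wild type. Both overlapped, and wild-type replicate 1 was the highest library for each. The mitochondrial complex III gene that the symbols miss, mt-Cytb (cytochrome b), had 11559.7, 12228 and 11138 TPM in overexpression libraries, against 12852, 12340.0 and 11941 TPM in wild type, with a log2 fold change of -0.089 ± 0.077. The 2 mitochondrial ribosomal RNAs were not analysed here.

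**Figure D3:**
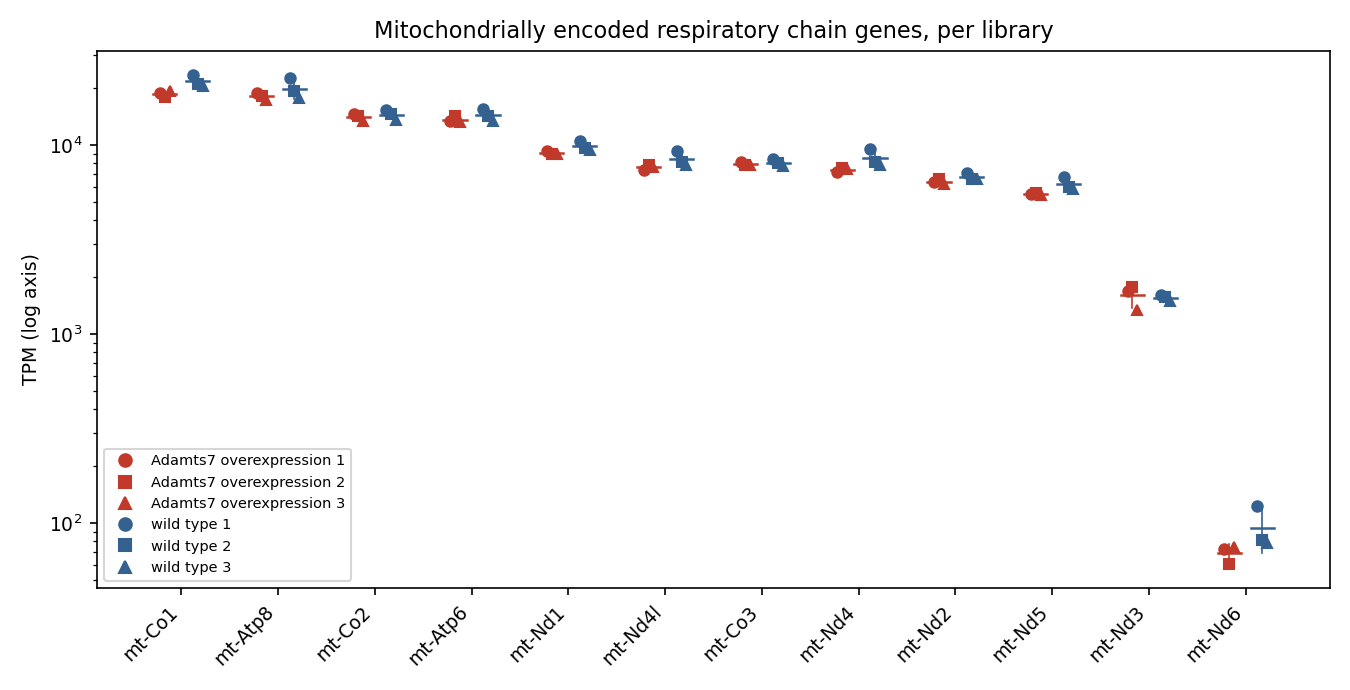
Level of each of the 12 mitochondrially encoded members in TPM (vertical axis, log scale), with genes along the horizontal axis in order of mean level. Each point is 1 library, overexpression to the left of wild type, and lines with bars are mean and SD (n = 3 each). The range runs from 81.9 TPM for mt-Nd6 to 20232 TPM for mt-Co1, far wider than any gap between genotypes.

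Set against each other within a library, mitochondrial transcripts outweighed nuclear ones in both genotypes, and less so in the overexpression cultures. The mitochondrial members summed to 111493, 110963 and 108428 TPM in the overexpression libraries, against 130230.0, 117500.0 and 112439 TPM in wild type. The nuclear members summed to 13578, 14280.5 and 13688 TPM in the overexpression libraries, against 12140, 13450 and 13556 TPM in wild type. The ratio of the sums was 8.21, 7.77 and 7.92 in overexpression cultures, against 10.7, 8.74 and 8.29 in wild type. Expressed as a share, mitochondrial transcripts made up 88.8% ± 0.277 of the summed respiratory chain TPM in overexpression cultures and 90.1% ± 1.17 in wild type (SD, n = 3 each). The groups did not overlap, but the difference of -1.30 percentage points, overexpression minus wild type, was about the size of the wild-type SD, compared with -0.641 points without wild-type replicate 1. With mt-Cytb, Cyc1, Ndufab1 and Usmg5 added, the shares were 89.4% ± 0.229 in overexpression cultures and 90.7% ± 1.08 in wild type.

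The ratio ran the same way in each of the 3 complexes that have members of both kinds. In complex I it was 8.22, 7.89 and 8.18 in overexpression libraries, against 11.0, 8.91 and 8.68 in wild type. In complex IV it was 13.5, 12.4 and 13.0 in overexpression libraries, against 17.1, 14.1 and 13.2 in wild type. In complex V it was 8.63, 8.33 and 7.94 in overexpression libraries, against 11.2, 9.02 and 8.33 in wild type. The genotypes did not overlap in complex I, whereas in complexes IV and V the overexpression range reached into that of wild type. Wild-type replicate 1 was the highest library in all 3, and the difference of the means without it was -0.701 for complex I, -0.701 for complex IV and -0.374 for complex V, compared with -1.45, -1.85 and -1.23 with it.

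**Figure D4:**
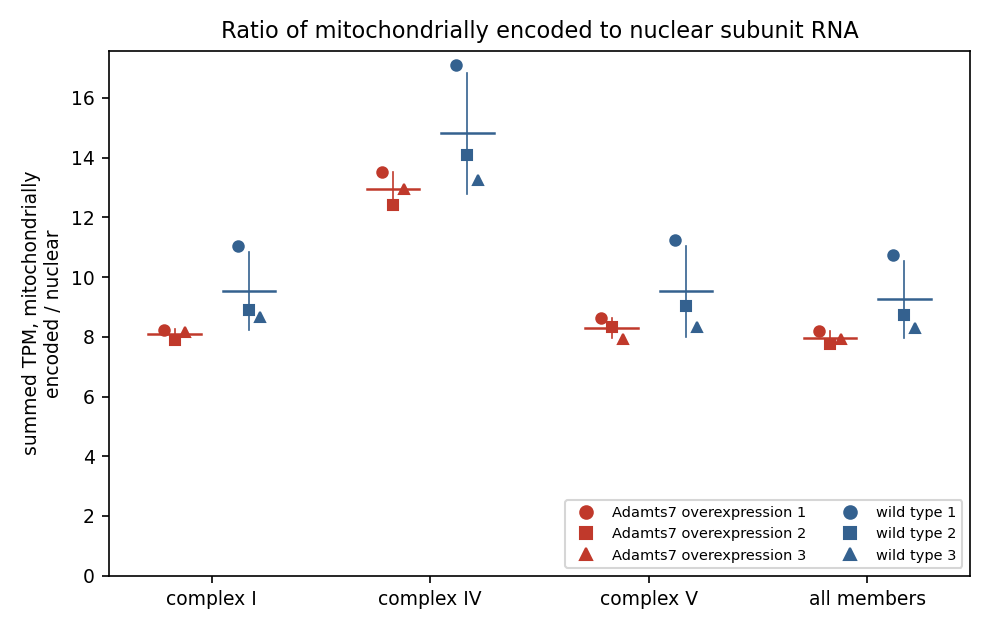
Ratio of summed mitochondrial to summed nuclear TPM (vertical axis, no unit) in complexes I, IV and V and over all members. Points are libraries, overexpression to the left of wild type, and lines with bars are mean and SD (n = 3 each). In complexes I, IV and V the means are 8.09, 13.0 and 8.30 in overexpression cultures and 9.54, 14.8 and 9.53 in wild type, with wild-type replicate 1 at the top each time.

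In complex I, the NADH dehydrogenase, 31 of 37 nuclear members had a fold change above 0, with a median of 0.097. At an unadjusted p under 0.05, 7 were higher (18.9%, against 10.6% of all genes). In all, 8 lay wholly higher in the overexpression libraries (21.6%, against 14.3% of all genes). Ndufa13 (also called GRIM-19; chromosome 8, 69894163 to 69902558 in GRCm38.p6), a membrane-arm subunit, had the smallest p of all members. It had 88.7, 96.6 and 88.7 TPM in overexpression libraries, against 65.5, 73.9 and 68.5 TPM in wild type, every overexpression library lying higher, and its log2 fold change was 0.39 ± 0.071 (limma adjusted p = 0.128, ranging from 0.00712 to 0.354 over the alternatives). Ndufa2, an accessory subunit of the peripheral arm, had 106, 104 and 100.2 TPM in overexpression libraries, against 72.7, 86.6 and 84.0 TPM in wild type (log2 fold change 0.35 ± 0.079; limma adjusted p = 0.131). For Ndufa13 the gap between the genotypes was wider than the range within either one, and for Ndufa2 it was about as wide as the wild-type range. Ndufa5, in the peripheral arm, had 127, 118 and 109 TPM in overexpression libraries, against 93.4, 94.1 and 101 TPM in wild type, and Ndufb2, in the membrane arm, had 76.0, 87.3 and 73.1 TPM against 54.9, 62.5 and 67.8 TPM in wild type. These and 3 other nuclear subunits of complex I, in all Ndufa5, Ndufb2, Ndufv2, Ndufs8 and Ndufc1, named here after their values were seen, were higher at an unadjusted p under 0.05 with log2 fold changes from 0.17 to 0.35. Ndufv2 and Ndufs8 carry iron-sulfur clusters.

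Among the core subunits that take up electrons from NADH first, Ndufv1 and Ndufs1 overlapped between genotypes, while Ndufv2 did not. Ndufv2 had 91.4, 91.8 and 95.8 TPM in overexpression libraries, against 87.3, 79.6 and 81.3 TPM in wild type. Ndufv1, which holds the NADH site, had 89.2, 89.9 and 88.0 TPM in overexpression libraries, against 81.7, 94.7 and 93.2 TPM in wild type, and Ndufs1, its neighbour in the electron path, had 64.4, 66.9 and 69.6 TPM against 66.3, 61.0 and 58.9 TPM in wild type. All of these genes were named after their values were seen. The most abundant rows were Ndufb4c, at 415.9 TPM on average, and Ndufa1. Ndufb4c and Ndufb4 are near-identical copies between which reads may be split, and their sum was 431, 488 and 433 TPM in overexpression libraries, against 361, 442 and 458 TPM in wild type. Ndufa1, a small membrane subunit needed for assembly, had 231, 250.4 and 243 TPM in overexpression libraries, against 221, 265 and 241 TPM in wild type, and its fold change had no settled direction. Ndufa4 had 180.0, 184 and 175 TPM in overexpression libraries, against 137, 186 and 172 TPM in wild type.

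Complex II, succinate dehydrogenase, which also serves the citrate cycle, had the smallest median log2 fold change of the nuclear groups. It was 0.050 over its 4 members, and none passed an unadjusted p of 0.05, against 10.6% of all genes higher and 8.94% lower. The flavoprotein Sdha had 181, 175 and 191 TPM in overexpression libraries, against 174, 188 and 181 TPM in wild type, and the iron-sulfur subunit Sdhb had 115, 120.2 and 109 TPM in overexpression libraries, against 96.2, 114 and 114 TPM in wild type. The membrane anchor Sdhd, with 83.3, 83.0 and 87.4 TPM in overexpression libraries against 71.2, 82.5 and 79.0 TPM in wild type, was the only one whose genotypes did not overlap. As the only 1 of the 4 wholly higher, it makes up 25.0%, against 14.3% of all genes.

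In complex III, which passes electrons from ubiquinol to cytochrome c, 7 of 8 nuclear members had a fold change above 0, with a median of 0.10. Only 1, Uqcrh, lay wholly higher in the overexpression libraries (12.5%, against 14.3% of all genes). It was also the only one higher at an unadjusted p under 0.05 (12.5%, against 10.6% of all genes). Uqcrh, the hinge subunit at the cytochrome c1 side, had 382, 401 and 367 TPM in overexpression libraries, against 309, 345 and 330.1 TPM in wild type, all overexpression libraries higher (log2 fold change 0.22 ± 0.066; limma adjusted p = 0.152). Uqcrb was the most abundant, with 454, 499.5 and 436 TPM in overexpression libraries, against 420.4, 435 and 447 TPM in wild type, and overlapped. Uqcrq, likewise a small subunit, had 158, 159.6 and 145 TPM in overexpression libraries, against 115, 151 and 147 TPM in wild type, where wild-type replicate 1 alone was clearly lower. Cyc1, which encodes cytochrome c1 and lies outside the symbol pattern, had 94.3, 93.8 and 91.1 TPM in overexpression libraries, against 79.1, 88.4 and 86.8 TPM in wild type (log2 fold change 0.14 ± 0.064).

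In complex IV, cytochrome c oxidase, nuclear subunits surround the mitochondrial core and several exist in tissue-specific forms. Of its 14 nuclear members 10 had a fold change above 0, with a median of 0.13. In all, 5 lay wholly higher in the overexpression libraries (35.7%, against 14.3% of all genes). Cox6c was the only one at an unadjusted p under 0.05, which is 7.14%, against 10.6% of all genes higher at this p. It had 183, 184 and 167 TPM in overexpression libraries, against 138, 161 and 162 TPM in wild type (log2 fold change 0.21 ± 0.081; limma adjusted p = 0.217). Cox7b had 110.4, 117 and 130.0 TPM in overexpression libraries, against 99.97, 111 and 105 TPM in wild type, and overlapped. Cox8a, among the most abundant, had 418, 439.7 and 443 TPM in overexpression libraries, against 387, 449.9 and 482 TPM in wild type, with a fold change whose sign depended on single libraries.

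The ubiquitous forms dominated each pair of tissue forms. Cox4i1, the general form of subunit 4, had 458, 473 and 462 TPM in overexpression libraries, against 411, 428 and 445 TPM in wild type. Cox4i2 (chromosome 2, 152753916 to 152765039 in GRCm38.p6), the form known from lung and from cells at low oxygen, had 2.37, 31.0 and 2.45 TPM in overexpression libraries, against 1.01, 1.89 and 0.677 TPM in wild type. All overexpression libraries lay higher, yet the fold change of 1.75 ± 0.82 (limma adjusted p = 0.292) was set largely by replicate 2, since Cox4i2 made up 6.16% of both forms in that library, at most 0.528% in the other overexpression libraries and at most 0.441% in wild type. Without overexpression replicate 2 its log2 fold change was 0.67. Replicate 2 was also the overexpression library with the highest summed smooth muscle markers.

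Subunit 6b has a pair of forms too. Cox6b1, the general form, had 396, 414 and 382 TPM in overexpression libraries, against 319.8, 359 and 388 TPM in wild type, while Cox6b2, known from testis, had 42.9, 33.4 and 44.4 TPM in overexpression libraries, against 43.2, 50.6 and 51.2 TPM in wild type. Each overlapped on its own, but Cox6b2 made up 9.78%, 7.45% and 10.4% of both forms in overexpression libraries, against 11.9%, 12.4% and 11.7% in wild type, without overlap. That share does not depend on the scaling of the libraries, and it was chosen after its values were seen. Cox6b2 had the lowest fold change of the nuclear members (-0.27 ± 0.12; limma adjusted p = 0.289). Without overexpression replicate 2, its lowest library, the value was -0.14, and Atp5g2, at -0.19, was then the lowest nuclear member.

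Muscle forms of the other subunits were scarce. Cox7a1, the heart and skeletal muscle form, had 2.46, 0.906 and 1.77 TPM in overexpression libraries, against 1.06, 1.15 and 0.383 TPM in wild type, and at a mean of 1.29 TPM was the member nearest to the minimum. Its general counterpart Cox7a2 had 175, 178 and 174 TPM in overexpression libraries, against 149, 172 and 160.1 TPM in wild type, and Cox7a2l, which joins complexes III and IV into supercomplexes, had 326, 355 and 326 TPM in overexpression libraries, against 326, 319 and 327 TPM in wild type. Cox6a1, the general form of subunit 6a, had 387, 404 and 379 TPM in overexpression libraries, against 366, 469 and 448 TPM in wild type. The muscle forms Cox6a2 and Cox8b lay below the minimum, Cox6a2 at a mean of 0.153 TPM and Cox8b at 0 in every library. Next below the minimum were Ndufa4l2, a form known to be induced at low oxygen, at a mean of 0.363 TPM and Cox6c2 at 0.181 TPM, and next above it after Cox7a1 were Cox4i2 at 6.57 TPM and Atp5s at 9.43 TPM. Of the 11 striated muscle markers, 3 reached a mean of 1 TPM. Of these Tnnt2 was higher in every overexpression library and 1 had a fold change below 0.

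**Figure D5:**
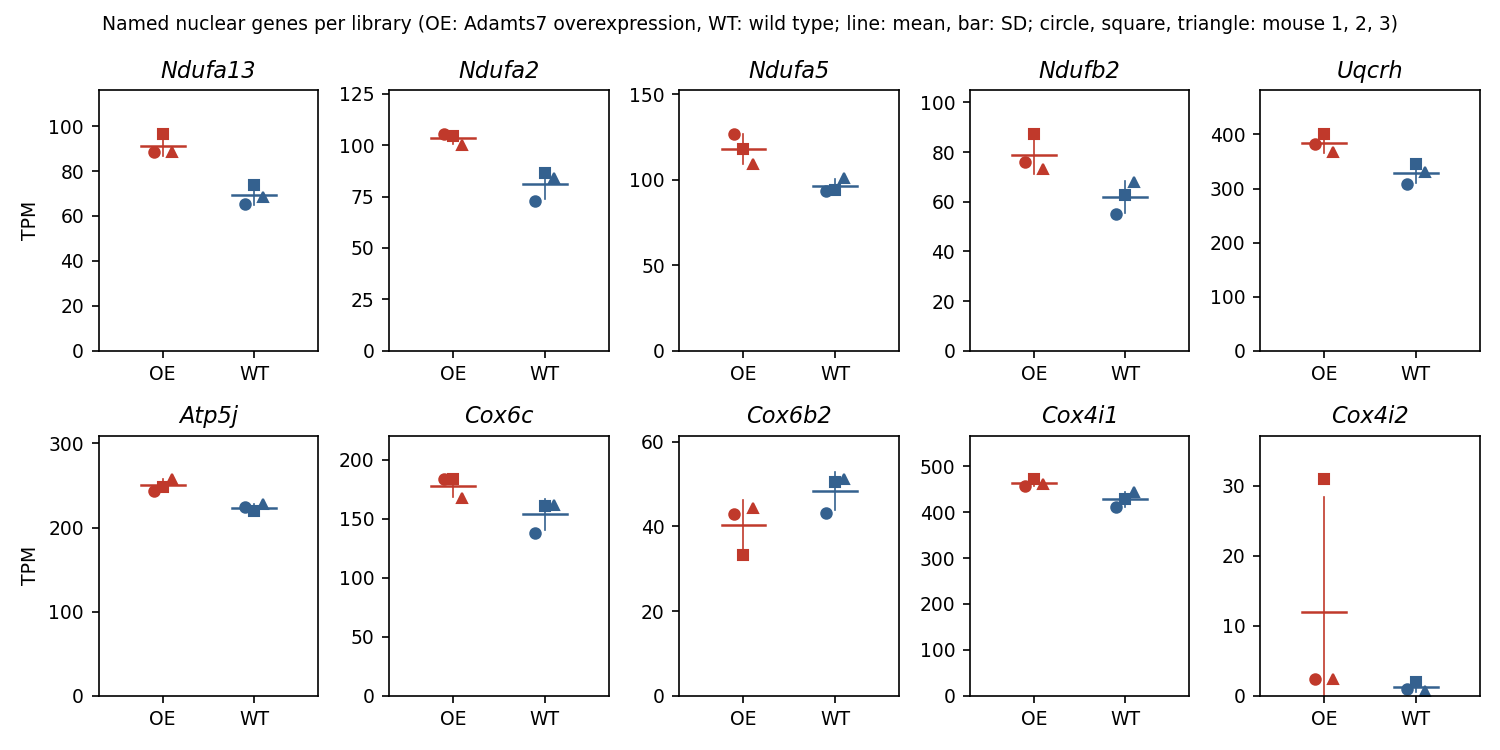
TPM in each library (vertical axes, starting at 0) for Ndufa13, Ndufa2, Ndufa5, Ndufb2, Uqcrh, Atp5j, Cox6c, Cox6b2, Cox4i1 and Cox4i2, 1 panel a gene. Points are libraries, overexpression to the left of wild type, and lines with bars are mean and SD (n = 3 each). The lower SD bar of Cox4i2 runs past 0 and is not drawn there, because replicate 2 of overexpression alone stands at 31.0 TPM.

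In complex V, the ATP synthase, 14 of 17 nuclear members had a fold change above 0, with a median of 0.076. In all, 8 lay wholly higher in the overexpression libraries (47.1%, against 14.3% of all genes). At an unadjusted p under 0.05, 5 were higher (29.4%, against 10.6% of all genes). Atp5j, a peripheral stalk subunit, had 244, 249 and 258 TPM in overexpression libraries, against 224, 219 and 227 TPM in wild type (log2 fold change 0.16 ± 0.053; limma adjusted p = 0.185). Atp5j2, a small subunit of the membrane sector, had 134, 143 and 131 TPM in overexpression libraries, against 108, 122 and 123 TPM in wild type (0.21 ± 0.074; limma adjusted p = 0.195). Atp5k, Atp5g1 and Atp5f1, named after their values were seen, were also higher at an unadjusted p under 0.05, with log2 fold changes of 0.23, 0.19 and 0.14. The catalytic subunit Atp5b, the most abundant nuclear member, had 593, 584 and 603 TPM in overexpression libraries, against 519.8, 598 and 597 TPM in wild type, where all but wild-type replicate 1 lay close together. Atp5h of the stalk had 426, 468 and 443 TPM in overexpression libraries, against 439, 417 and 439 TPM in wild type. Atp5s, a factor outside the core enzyme, had 9.73, 8.93 and 8.54 TPM in overexpression libraries, against 11.3, 8.20 and 9.88 TPM in wild type.

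Which members passed depended on how libraries were weighted. With library weights, which give less weight to libraries far from their group, limma called 20.8% of all genes. It called 12 members higher, against 11.4% of all genes, and 1 member, Ndufa11, lower, against 9.42% of all genes. The 12 were Atp5g1, Atp5j, Atp5k, Cox6c, Cox7a1, Ndufa13, Ndufa2, Ndufa5, Ndufb2, Ndufs8, Ndufv2 and Uqcrh. Without overexpression replicate 3, limma called 6.3% of all genes, 3.99% higher and 2.31% lower, and the 2 members called, Ndufa13 and Ndufa5, were both higher. Overexpression replicate 3 is also the overexpression library with the lowest macrophage markers, 1191 TPM, and it lies between the other overexpression libraries and wild type on the first principal component of all genes.

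Around the chain, 7 of 8 other gene lists, all but the nuclear regulators, had medians above 0 as well, again without a called gene. Wild-type replicate 1 bore on these too: without it the median was 0.065 over assembly factors, 0.047 over mitochondrial ribosomal proteins, 0.057 over electron carriers, 0.051 over genes of mitochondrial DNA and RNA, 0.066 over uncoupling and exchange genes, 0.079 over citrate cycle genes and -0.00028 over membrane and matrix proteins. Of 47 assembly factors of the complexes, 6 were higher and 1 lower at an unadjusted p under 0.05, with a median log2 fold change of 0.092. Cox19, which helps to deliver copper to complex IV, had 61.6, 49.8 and 55.9 TPM in overexpression libraries, against 39.5, 43.6 and 36.7 TPM in wild type, all overexpression libraries higher (log2 fold change 0.47 ± 0.10; limma adjusted p = 0.131). Cox17, of the same copper route, had 117, 129.6 and 139.8 TPM in overexpression libraries, against 107, 119 and 121 TPM in wild type (log2 fold change 0.15). Of 78 mitochondrial ribosomal proteins, which serve only the mitochondrially encoded subunits, 12 were higher and 0 lower, with a median of 0.073, and without wild-type replicate 1 the counts were 5 and 1. For all genes the shares at this p were 10.6% higher and 8.94% lower, and 7.55% and 6.29% without wild-type replicate 1. Mrpl51 had 121, 123 and 131 TPM in overexpression libraries, against 100.3, 103 and 102 TPM in wild type (0.29), and Mrpl35 had 23.8, 26.4 and 25.5 TPM in overexpression libraries, against 18.2, 19.6 and 18.5 TPM in wild type (0.41).

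Of the 31 tested genes that copy mitochondrial DNA and make and process its RNA, 1, Slirp, was higher and 0 lower at an unadjusted p under 0.05, with a median of 0.057. That is 3.23% higher, whereas over all genes 10.6% were higher and 8.94% lower. Polrmt, the mitochondrial RNA polymerase, had 15.4, 12.8 and 18.7 TPM in overexpression libraries, against 19.1, 18.7 and 18.3 TPM in wild type. Slirp, an RNA-binding partner that stabilises mitochondrial mRNAs, had 56.9, 48.7 and 48.0 TPM in overexpression libraries, against 45.9, 39.5 and 37.4 TPM in wild type. Membrane and matrix proteins that serve as a rough gauge of mitochondrial mass had 1 of 19 higher and 0 lower, with a median of 0.0069, and that gene was the chaperonin Hspd1, at 360.2, 381 and 344 TPM in overexpression libraries, against 299, 312 and 321 TPM in wild type.

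Of 18 citrate cycle and pyruvate dehydrogenase genes tested, 7 were higher and 0 lower at an unadjusted p under 0.05, with a median of 0.047. Over all genes 10.6% were higher and 8.94% lower at this p. On leaving out single libraries 3 or 4 were higher. Without wild-type replicate 1 it was 4, where 7.55% of all genes were higher. Pdha1, the subunit of pyruvate dehydrogenase that admits pyruvate carbon, had 112, 127 and 100.4 TPM in overexpression libraries, against 89.6, 89.6 and 82.5 TPM in wild type (log2 fold change 0.37 ± 0.093; limma adjusted p = 0.134). Suclg1, of succinyl-CoA ligase, had 57.7, 70.0 and 62.0 TPM in overexpression libraries, against 45.8, 53.6 and 53.2 TPM in wild type. Mdh2, the mitochondrial malate dehydrogenase, overlapped between genotypes, with a log2 fold change of -0.038. Among 20 electron carrier genes tested, 2 were higher and 0 lower, namely Etfa of the electron transfer flavoprotein (0.29) and Ndufab1 (0.19).

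Genes that use or dissipate the gradient included the largest difference of the gene lists around the chain, the members aside. Of 9 tested, 4 were higher and 0 lower at an unadjusted p under 0.05, with a median of 0.092. Over all genes 10.6% were higher and 8.94% lower. Ucp2, an inner membrane carrier abundant in macrophages, had 49.3, 44.8 and 24.2 TPM in overexpression libraries, against 12.3, 17.3 and 14.6 TPM in wild type (log2 fold change 1.31 ± 0.26; limma adjusted p = 0.131). The 3 overexpression libraries stood in the same order for Ucp2 as for the summed macrophage markers, and the part of macrophage RNA in this value was not tested. Slc25a4, which exchanges ADP for ATP across the inner membrane, had 345, 355 and 340.1 TPM in overexpression libraries, against 289.8, 317 and 303 TPM in wild type (0.19 ± 0.057).

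Regulators of nuclear respiratory genes lay mostly on the lower side, with 10 of 12 fold changes below 0. Of 12 tested, 0 were higher and 2 lower at an unadjusted p under 0.05, with a median of -0.12. Over all genes 10.6% were higher and 8.94% lower. Without wild-type replicate 1, 0 regulators were lower, against 6.29% of all genes, with a median of -0.086. Gabpb1, a subunit of the ETS-family regulator GABP, had 43.7, 36.7 and 48.6 TPM in overexpression libraries, against 52.2, 50.0 and 54.9 TPM in wild type (log2 fold change -0.29 ± 0.11; limma adjusted p = 0.212). Epas1, the oxygen-regulated factor HIF2A, had 195, 139 and 263 TPM in overexpression libraries, against 305, 285 and 277 TPM in wild type (-0.59 ± 0.20; limma adjusted p = 0.197). Epas1 is abundant in endothelium, whose markers were lower in the same libraries, and the part of endothelial RNA in its value was not tested. Nrf1, which encodes nuclear respiratory factor 1 and was named after its values were seen, had 19.2, 17.5 and 19.0 TPM in overexpression libraries, against 19.0, 20.6 and 19.8 TPM in wild type.

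NRF1 and GABP bind close to the start of many nuclear respiratory genes, and their letters can be read in the promoters of the members. A promoter, from 250 bases before to 50 after a start of the gene (RefSeq, GRCm38.p6), was found for 64 of the 80 nuclear members. The centre of the NRF1 motif, GCATGCG, read on both strands, was in 11 of the 64 promoters, or 17.2%, against 7.26% of the 9906 tested genes with a promoter and 4.01% of all 27025 promoters. The ETS letters CCGGAAG, also on both strands, were in 16 promoters of members, or 25.0%, against 20.2% of tested genes and 9.93% of all promoters. Both were in 6 promoters of members, or 9.38%, against 1.70% of tested genes. A match is a description of these letters and not a bound site, and 2 NRF1 matches can overlap, 1 on each strand. The 3 promoters shown belong to members described above that hold both motifs, and show where the NRF1 letters, in capitals on either strand, lie ahead of the start, which follows the first 250 bases of each line.
Sdhb: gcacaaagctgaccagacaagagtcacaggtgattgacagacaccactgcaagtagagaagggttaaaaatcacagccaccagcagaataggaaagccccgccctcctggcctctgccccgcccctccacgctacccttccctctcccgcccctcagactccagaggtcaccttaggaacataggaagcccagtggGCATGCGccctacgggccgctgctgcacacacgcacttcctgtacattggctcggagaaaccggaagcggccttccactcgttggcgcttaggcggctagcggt
Cox6a1: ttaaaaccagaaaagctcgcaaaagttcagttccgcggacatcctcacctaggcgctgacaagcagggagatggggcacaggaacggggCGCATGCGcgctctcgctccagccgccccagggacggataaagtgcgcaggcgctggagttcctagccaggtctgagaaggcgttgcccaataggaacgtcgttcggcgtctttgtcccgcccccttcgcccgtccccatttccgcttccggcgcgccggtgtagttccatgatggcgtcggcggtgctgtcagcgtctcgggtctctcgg
Atp5j: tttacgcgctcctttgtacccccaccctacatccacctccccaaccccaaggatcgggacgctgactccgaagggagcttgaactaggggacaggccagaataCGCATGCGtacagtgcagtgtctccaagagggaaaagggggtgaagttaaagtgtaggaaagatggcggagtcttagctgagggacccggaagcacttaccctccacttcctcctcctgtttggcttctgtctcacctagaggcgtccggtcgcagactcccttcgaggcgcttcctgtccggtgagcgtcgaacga
The Sdhb window is chr4:140961021-140961320 on the plus strand, that of Cox6a1 chr5:115348909-115349208 on the minus strand and that of Atp5j chr16:84834927-84835226 on the minus strand. The capitals begin 54 bases before the start used in Sdhb, 161 before it in Cox6a1 and 147 before it in Atp5j. The start used for Atp5j is not the outer end of the gene. Its whole window lies inside the gene span, which reaches to 84835857.

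Members with the NRF1 letters had a lower median fold change than those without, a difference that was not tested. Their median log2 fold change was 0.026 (n = 11), against 0.091 for the 53 nuclear members without them, and 2 of the 11 were higher at an unadjusted p under 0.05, against 9 of the 53. Over all tested genes with a promoter the medians were -0.018 with the letters (n = 719) and -0.0096 without (n = 9187), and 57 of the 719 were higher, against 970 of the 9187. Members with the ETS letters had a median of 0.12 (n = 16), against 0.078 for the 48 without. Of the printed promoters, Atp5j belongs to a gene that lay wholly higher in overexpression cultures, while Sdhb and Cox6a1 overlapped.

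In chromatin, the footprint of NRF1 scored lower in overexpression cultures, while the change for GABPA lay near the median of all motifs. A footprint score measures how far a motif is shielded from transposase cutting within open chromatin, and the authors' deposited table gives 1 value per genotype over pooled mice, so no replicate error exists. In the authors' deposited table the mean score of Nrf1 sites was 0.400 in overexpression cultures and 0.443 in wild type, and the change score, turned to overexpression over wild type, was -0.289. That change was the 20th lowest of 879 motifs, whose changes ran from -0.444 to 0.681 with a median of 0.107, in the authors' deposited table. Of 18892 Nrf1 sites in the authors' deposited table, 6170 (32.7%, 95% Wilson interval 32.0% to 33.3%) were called bound in overexpression cultures and 7393 (39.1%, 38.4% to 39.8%) in wild type, intervals that cover counting error only. GABPA had a change score of 0.127 and Yy1 of 0.109, both near the median, while YY2 had -0.182, per the authors' deposited table. There GABPA is 1 of 13 motifs in a cluster named after Erg, so its footprint cannot be assigned to GABPA alone. The estrogen-related receptor motifs ESRRA, ESRRB and Esrrg, which share near-identical letters, had changes of -0.069, -0.057 and -0.061 in the authors' deposited table. All these values cover sites over the whole genome, and which of them lie at respiratory chain genes is not given in the table.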

How the data were processed

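The authors deposited a table of TPM for every gene in each library. Its name points to kallisto per the labels, and mm10 is the build per the submitters' processing notes. Software versions, annotation, strand and read number have no entry in the labels. kallisto divides reads among similar transcripts, so close copies and overlapping genes are uncertain. For ATAC-seq the authors deposited footprint scores, log2-scale change scores, p-values and counts of bound sites per motif, over pooled mice, with the column names of TOBIAS BINDetect. Their p-values were not used. The sign of the change was turned to overexpression over wild type, and it differs from that of the score difference for 48 of 879 motifs.

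Genotype labels gave the groups and titles the replicate numbers. Genes averaging at least 1 TPM over the 6 libraries were fitted as log2(TPM + 1) in limma 3.58.1 (R 4.3.3; lmFit, then eBayes with a trend), two-sided, and p-values were adjusted by Benjamini-Hochberg over all 13131 genes, with a threshold of 0.05. Fold changes on that scale understate changes of low genes. Sets of genes were described by counts and medians, without a test. The fit was tested on simulated data with noise drawn independently for each gene. The planted changes were larger than the fold changes of most members. It therefore does not cover shifts shared by the genes of a library, or changes as small as those of most members. Sums, ratios and promoter matches were computed in Python 3.11.15.

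Named genes are all mitochondrial members, per complex the 2 most abundant nuclear members and the 2 with the smallest p, tissue forms, the 3 members either side of 1 TPM, and from each list the 2 most abundant and the 2 with the smallest p, apart from those said to be named after their values were seen. Of these, 1 gene is not reported here. The members and lists were chosen with earlier results of these data known. Mouse numbers mark different animals and did not pair the libraries.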

Additional observations from a re-analysis of the deposited data

How the results depend on the processing

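Over 16 alternatives, 1046 of 1103 fold changes of named genes kept their direction and their side of the threshold, 31 changed sign, 22 passed the threshold newly and 4 became 0. TPM keep no depth, so precision rests on 3 libraries a genotype. Genes called over the whole table, 2 as reported, numbered 1 with a minimum of 5 TPM, 2728 with library weights, 1 with the replicate block and from 1 to 828 on leaving out single libraries. Members called higher, 0 as reported, numbered 12 with library weights and 0 to 2 on leaving out single libraries, and members called lower numbered 1 with library weights. Members higher at an unadjusted p under 0.05, 14 as reported, numbered 8 without the trend and 8 to 14 on leaving out single libraries. Those lower, 1 as reported, numbered 0 without the filter, 2 when scaled to the nuclear total, 10 with library weights and 0 to 2 on leaving out single libraries. Of all genes, 10.6% were higher and 8.94% lower as reported, and 992 to 1559 higher and 691 to 1814 lower on leaving out single libraries. For the other settings, the replicate block included, the share of all genes at this p is not given here. Those counts therefore cannot be read as particular to the members. Library weights called 20.8% of all genes even at the adjusted p. The mitochondrial median was -0.036 under quantile normalization. That step gives genes of the same rank the same value in every library. A gene that keeps its rank in every library then has a fold change of 0, whatever its level, so this setting cannot show changes of such genes. The replicate numbers share no animal, so the libraries were not paired. Same-numbered libraries had correlations of -0.022, 0.058 and 0.018 of their deviations. With 3 libraries a genotype, these cannot show whether same-numbered libraries were cultured or handled together. With the replicate block 0 members were called and 14 higher and 1 lower passed the unadjusted p. The sign changed under quantile normalization for mt-Atp8 (0.064), mt-Co3 (0.10), mt-Nd3 (-0.12) and Slc25a3 (0.0084), with library weights for mt-Co2 (0.015), mt-Co3 (0.015), Sdha (-0.011), Atp5h (-0.00044), Atp5s (0.035), Grsf1 (-0.038) and Slc25a3 (0.0031), with median-of-ratios scaling for Ndufa1 (0.0095) and with scaling to the nuclear total for Sdha (-0.011). Leaving out single libraries moved the log2 fold change across 0, over ranges of -0.050 to 0.0082 for mt-Co3, -0.046 to 0.16 for mt-Nd3, -0.065 to 0.064 for Ndufa1, -0.027 to 0.036 for Sdha, -0.10 to 0.056 for Cox8a, -0.0099 to 0.092 for Atp5b, -0.20 to 0.0075 for Atp5s, -0.11 to 0.013 for Coa3, -0.055 to 0.10 for Grsf1 and -0.050 to 0.040 for Slc25a3. Beyond that property of quantile normalization, the cause of these changes was not tested. Leaving out libraries for the other gene lists was chosen after seeing the data.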
